A study of Mus musculus with 18 samples.

Results

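The TAM receptors and genes of efferocytosis described here are 10 genes chosen by name among the 53465 genes counted: the receptors Axl, Mertk and Tyro3, the bridging ligands Gas6, Pros1 and Mfge8, the phosphatidylserine receptors Timd4, Stab1 and Cd300lf, and the signalling adaptor Elmo1. Each symbol matched a single gene, and all 10 had counts in at least 1 library. Microglia and macrophages had been sorted from the contused thoracic spinal cord of adult female C57BL/6J mice of 8 to 10 weeks. At 48 h after spinal cord injury (SCI), 3 mice received 1 µL of PBS into the cord, 3 received 100 ng of recombinant IL-13 (rIL-13) and 3 received 100 ng of recombinant IL-4 (rIL-4), and cells were collected 24 h later. Both cell types came from the same 9 animals, which gave 18 libraries in 6 groups of 3. Microglia were gated as CD45low, CD11b+, F4/80+ cells and macrophages as CD45high, CD11b+, F4/80+ cells. Every animal was injured and injected, the libraries were all from a single time after injection, and no uninjured cord was compared here.

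Efferocytosis is the engulfment of dying cells by phagocytes. A dying cell exposes the lipid phosphatidylserine on its surface, which phagocytes bind either directly, through receptors such as those encoded by Timd4, Stab1 and Cd300lf, or through soluble bridging proteins. Gas6 and protein S (Pros1) link the lipid to the receptor tyrosine kinases Tyro3, Axl and Mertk, from whose initials the TAM family takes its name, and Mfge8 links it to integrins. Downstream, Elmo1 acts with Dock1 to activate the GTPase Rac, which drives the actin around the meal. In the injured nervous system microglia and infiltrating macrophages use these proteins to clear dying cells and debris, and TAM signalling also restrains the inflammatory response of the same cells.

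The libraries held between 35961305 and 45849829 counts, with a median of 39570356. In each treatment the summed level of 8 microglia markers was higher in every microglia library than in any macrophage library, with 6411 to 10772 against 2355 to 3572 CPM (counts scaled to a common library total) after PBS, so that the labels went with the markers while microglia markers were also found in macrophages. With the cytokines the markers stood at 3031 to 7193 CPM with rIL-13 and 2687 to 4031 with rIL-4 in microglia, and at 913 to 1866 and 421 to 821 CPM in macrophages. Microglia libraries also held all 8 markers of a fibroblast and pericyte list, at 2603 to 4169 CPM with PBS, 1537 to 9611 with rIL-13 and 211 to 1527 with rIL-4, and 7 of 7 endothelial markers, at 892 to 1883, 1952 to 3371 and 1907 to 2850 CPM. Macrophage libraries held at most 8.27 CPM of the fibroblast and pericyte markers and between 47.1 and 396 CPM of the endothelial ones. Since these were bulk samples, fewer cells of a type and less RNA per cell cannot be told apart.

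The regions upstream of the transcription start are given for Gas6, Cd300lf and Stab1, which had the largest fold changes among the members called between treatments, and for Pros1, whose window held the STAT6 spacing, as the 250 bases before the RefSeq start (build GRCm38.p6, minus strand except for Pros1, 5′ to 3′). Capitals mark matches on either strand to TTCNNNNGAA, the spacing that STAT6, the transducer of IL-4 and IL-13, prefers, to TTCNNNGAA, the general STAT spacing, and to GAGGAA, a core of the sites of PU.1, a factor that myeloid cells need. No match overlapped another.
Gas6, chr8:13494536-13494785: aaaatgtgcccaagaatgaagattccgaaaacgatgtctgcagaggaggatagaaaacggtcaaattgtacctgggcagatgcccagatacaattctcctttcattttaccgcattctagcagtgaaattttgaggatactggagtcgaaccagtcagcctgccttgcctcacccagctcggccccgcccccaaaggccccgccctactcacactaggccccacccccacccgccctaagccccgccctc
Cd300lf, chr11:115133993-115134242: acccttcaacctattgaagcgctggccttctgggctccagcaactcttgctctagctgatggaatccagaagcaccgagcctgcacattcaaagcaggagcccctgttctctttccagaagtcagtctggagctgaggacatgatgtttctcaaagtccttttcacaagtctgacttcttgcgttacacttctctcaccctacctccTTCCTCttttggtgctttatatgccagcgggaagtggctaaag
Stab1, chr14:31168642-31168891: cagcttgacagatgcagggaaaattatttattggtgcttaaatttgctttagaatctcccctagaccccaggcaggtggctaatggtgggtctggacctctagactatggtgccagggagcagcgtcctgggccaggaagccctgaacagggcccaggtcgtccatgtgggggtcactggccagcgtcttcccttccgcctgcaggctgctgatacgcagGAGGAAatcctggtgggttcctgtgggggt
Pros1, chr16:62854057-62854306: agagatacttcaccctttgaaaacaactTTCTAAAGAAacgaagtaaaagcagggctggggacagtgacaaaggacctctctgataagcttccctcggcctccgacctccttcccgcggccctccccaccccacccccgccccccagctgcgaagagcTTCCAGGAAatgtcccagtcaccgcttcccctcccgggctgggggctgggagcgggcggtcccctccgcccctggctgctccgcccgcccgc
Of the 11 windows of the 10 members, Elmo1 having 2, a single one held TTCNNNNGAA, that of Pros1 with TTCTAAAGAA at position -222 from the start, where 5.85% of 32841 mouse windows of the same length did. TTCNNNGAA was found in Pros1 and, as 2 matches, in the second window of Elmo1, against 7.02% of all windows. GAGGAA was found in Axl, Mfge8, Stab1 and Cd300lf, against 23.3% of all windows. Gas6, whose counts fell most in macrophages, had none of the 3 in its window. A match is a string of letters and not a measured site.

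The first question was which of the 10 genes differed between the treatments within a cell type. Differential expression (DE) was tested with edgeR's quasi-likelihood test over the 9 libraries of each cell type, with an adjusted p of 0.05 over all genes as the threshold. With rIL-4 against PBS in microglia, 3 of 10 members were DE, against 2.22% of 15566 genes tested: Cd300lf was higher, as 1.33% of all genes were, and Axl and Gas6 were lower, as 0.887% were. The rIL-4 and PBS libraries did not overlap for 9 of the 10, against 26.0% of all genes, and the median log2 fold change of the members was -0.61, against -0.06 for all genes. Tyro3, which stood apart here and with rIL-13, passed the filter on low counts only through the PBS microglia. With rIL-13 against PBS in microglia 0 of 10 were DE by edgeR's quasi-likelihood test, where 0.366% of all genes were, 0.283% as higher and 0.0835% as lower. The unadjusted p was under 0.05 for 5 members there, 1 was called by DESeq2, which called 414 of all genes where edgeR called 57, and 4 had groups apart, against 16.1% of all genes. In microglia, 0 of 10 were DE between the cytokines by edgeR and 0 by DESeq2, where 0.0385% of all genes were by edgeR, 6 genes, and 741 genes by DESeq2, with 4 at an unadjusted p under 0.05 and 4 whose groups did not overlap, against 12.2% of all genes.

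In macrophages, 9 of the 10 members passed the filter on low counts, and every member called there was lower with the cytokine. With rIL-4 against PBS, Gas6, Stab1, Elmo1 and Pros1 were DE, which is 4 of 9 against 14.0% of 13606 genes tested (6.77% higher and 7.20% lower). For 5 members tested the libraries of rIL-4 and PBS stood apart, against 34.1% of all genes, and the median log2 fold change of the members was -0.75, against 0.02 for all genes. With rIL-13 against PBS, Gas6 and Elmo1 were DE, which is 2 of 9 against 4.19% of all genes (2.53% higher and 1.66% lower), and 4 did not overlap, against 24.3% of all genes. Between rIL-4 and rIL-13, Gas6 alone of the 9 members was DE by edgeR's test, against 0.250% of all genes, and 4 did not overlap, against 14.0% of all genes. The 2 comparisons against PBS shared their PBS libraries within each cell type.

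**Figure D1:**
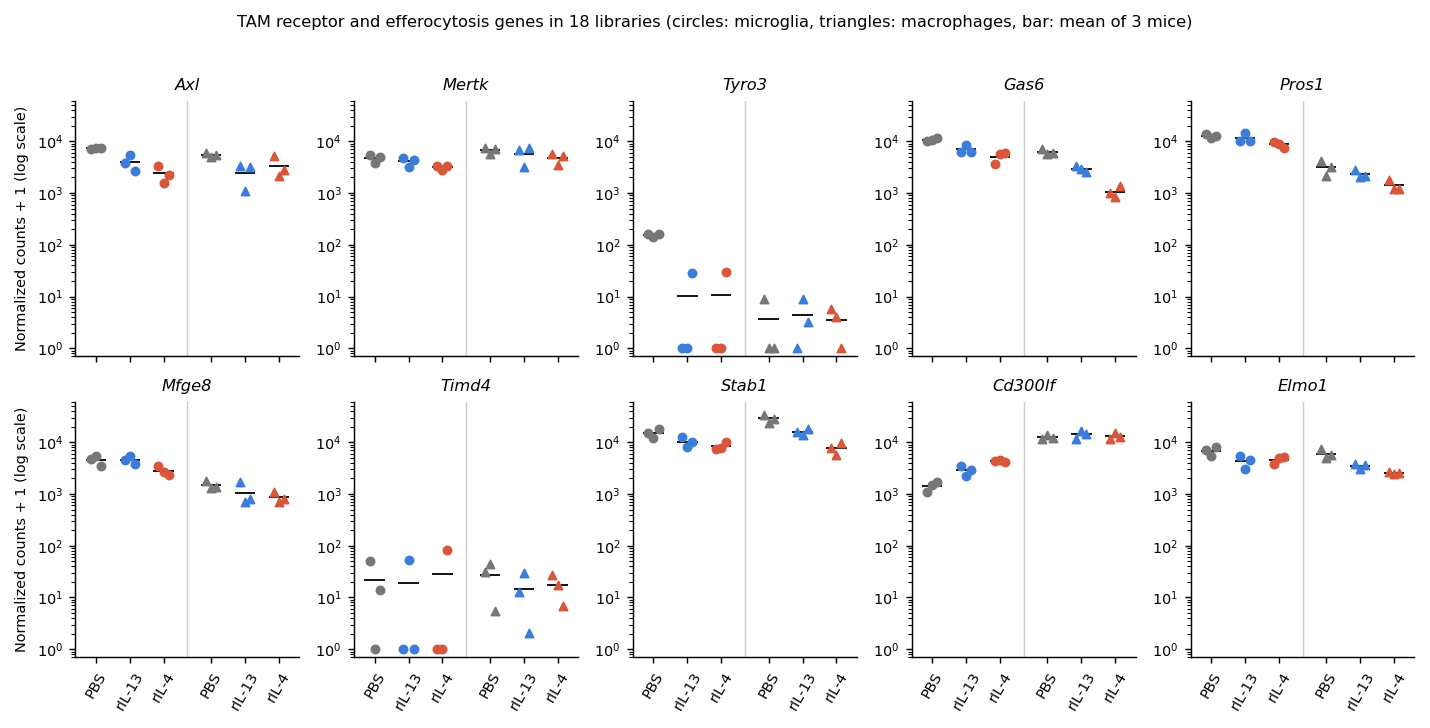
Normalized counts plus 1 on a log axis for each of the 10 genes in the 18 libraries. Points are single mice (circles microglia, triangles macrophages, colour the injection) and bars are means of 3 mice. Gas6 stepped down from PBS to rIL-13 to rIL-4 in macrophages without overlap, Cd300lf rose with rIL-4 in microglia and lay between 11574 and 16566 in every macrophage library, and Timd4, as well as Tyro3 outside of PBS microglia, lay near the bottom of the scale.

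Among the receptors, Axl (ENSMUSG00000002602.16, chromosome 7 from 25757273 to 25788705), a kinase that inflammatory stimuli raise in macrophages, was the one called between treatments. In PBS microglia it had 7260, 7482 and 7369 normalized counts (deposited counts over the size factor that DESeq2 gives each of the 18 libraries) in mice 1, 2 and 3. It had 3827, 5375 and 2697 with rIL-13 in mice 5, 6 and 7 and 3373, 1583 and 2223 with rIL-4 in mice 8, 9 and 10. Every cytokine library lay below every PBS library, and the mice of a cytokine group spread far more than those of PBS. The log2 fold change was -1.59 with rIL-4 (standard error, SE, 0.30, adjusted p = 0.0295, edgeR) and did not pass the threshold with rIL-13. The call with rIL-4 held without rIL-4 mouse 8, with -1.92, but not without any other mouse of the 2 groups, with adjusted p from 0.0692 without rIL-4 mouse 9 to 0.116 without PBS mouse 3 (edgeR). The summed fibroblast and pericyte markers and microglia markers given above were also lower in every rIL-4 microglia library than in any of PBS. Their part in the fall of Axl was not tested.

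In macrophages Axl had 5873, 5011 and 5504 normalized counts with PBS, 3263, 1081 and 3123 with rIL-13 and 5173, 2147 and 2742 with rIL-4. All rIL-13 libraries were below those of PBS, while rIL-4 mouse 8 lay within them. The log2 fold change with rIL-13 was -1.10 (SE 0.40, adjusted p = 0.182, edgeR, and 0.0494 with DESeq2's Wald test), and without rIL-13 mouse 6, the lowest library, it was -0.73. An interaction term over the 18 libraries compared the response of Axl to rIL-4 in microglia with that in macrophages, and the difference of -0.95 (SE 0.54) did not pass the threshold, with an adjusted p of 0.534 in edgeR.

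Mertk (ENSMUSG00000014361.5, chromosome 2 from 128698956 to 128802894), the receptor most tied to the clearance of apoptotic cells by resting phagocytes, moved less. It had 3856 to 5531 normalized counts in PBS microglia, 3208 to 4774 with rIL-13 and 2759 to 3390 with rIL-4, so that rIL-4 lay below PBS without overlap. In macrophages it had 5733 to 7445, 3160 to 7436 and 3470 to 5764. It was not called in any treatment comparison, with log2 fold changes between -0.55 and -0.19.

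Tyro3 (ENSMUSG00000027298.17, chromosome 2 from 119797733 to 119818104), the TAM receptor best known from neurons, was counted steadily in a single group. It had 165, 163 and 172 counts in the PBS microglia of mice 1, 2 and 3. With rIL-13 it had 0 counts in mice 5 and 6 and 36 in mouse 7, and with rIL-4 0 in mice 8 and 9 and 27 in mouse 10. All PBS libraries were thus above all cytokine libraries, but the cytokine groups each split into libraries with and without the transcript, and neither difference passed edgeR's test (adjusted p = 0.499 with rIL-4 and 0.864 with rIL-13, SE of the log2 fold change 2.44 in both). The fitted log2 fold change with rIL-4, -3.96, was -10.44 without rIL-4 mouse 10, so that this single library set its size. In the 9 macrophage libraries Tyro3 had between 0 and 7 counts and did not pass the filter. In microglia it passed only through the PBS group, so that its groups standing apart is tied to the filter. A count of 0 allows up to 3 counts, at most 0.0834 CPM in any library, and such limits cover counting error only. The markers of neurons summed to 6.03 to 10.9 CPM in PBS microglia, 3.15 to 17.2 with rIL-13 and 2.63 to 5.69 with rIL-4. The sum with rIL-4 lay below PBS, while PBS and rIL-13 overlapped. It was carried by Stmn2, with a mean of 6.63 CPM with PBS and 1.74 with rIL-4. The other markers did not follow it, with 0.775 and 0.765 for Snap25, 0.514 and 0.908 for Rbfox3 and 0.360 and 0.378 for Nefl, and 0 counts for Syt1. The part of neuronal RNA in the Tyro3 values was not tested.

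Levels were compared between the receptors per kb of exon, the union of a gene's annotated exons. In PBS microglia Axl held 56.9% ± 4.76 (SD, n = 3) of the summed TAM receptor signal, with 44.8% ± 12.7 after rIL-13 and 38.5% ± 6.84 after rIL-4. In macrophages it held 41.3% ± 1.44, 26.3% ± 3.45 and 36.6% ± 6.26. Mertk held nearly all of the remainder, since Tyro3 reached 0.972% at most. With 3 mice against 3 an exact two-sided permutation test cannot go below p = 0.1, so that these shares are given without a verdict. The groups did not overlap for rIL-4 against PBS in microglia, for rIL-13 against PBS and against rIL-4 in macrophages, or between the cell types, which came from the same mice, after PBS and after rIL-13. The summed receptor signal was 2585 ± 174 normalized counts per kb in PBS microglia, 1740 ± 166 with rIL-13 and 1208 ± 251 with rIL-4. In macrophages it was 2635 ± 289, 1823 ± 764 and 1772 ± 566.

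**Figure D2:**
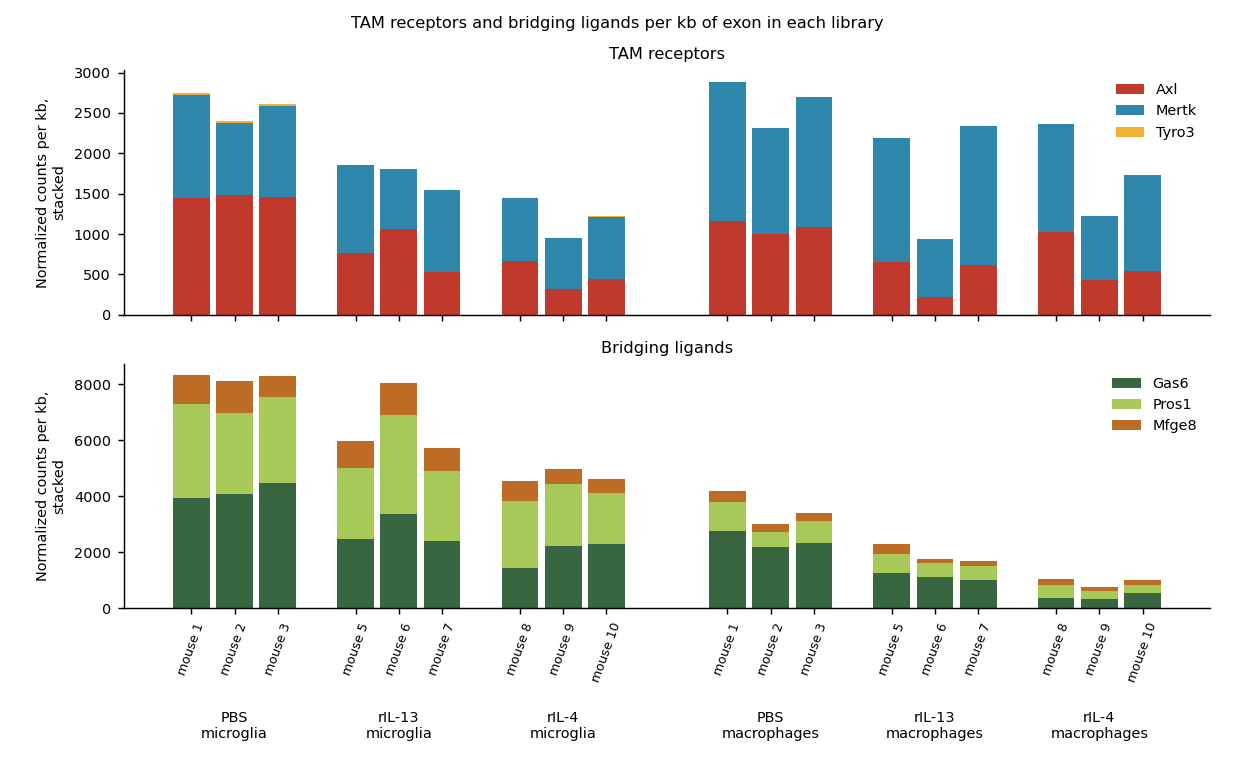
Normalized counts per kb of exon in each library, stacked over the TAM receptors Axl, Mertk and Tyro3 (upper panel) and over the ligands Gas6, Pros1 and Mfge8 (lower panel), from 0. Each bar is 1 mouse. The summed receptors of microglia had a mean of 2585 with PBS and 1208 with rIL-4, and the Gas6 block of macrophages shrank from a mean of 2438 with PBS to 1138 with rIL-13 and 417 with rIL-4.

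Of the bridging ligands, Gas6 (ENSMUSG00000031451.6, chromosome 8 from 13465374 to 13494490), which binds all 3 TAM receptors and is the main ligand of Axl, was the member with the most calls. In macrophages it had 7089, 5583 and 5967 normalized counts with PBS, 3261, 2876 and 2563 with rIL-13 and 982, 830 and 1375 with rIL-4. No 2 of the 3 groups overlapped, and the order was PBS, rIL-13, rIL-4. The log2 fold change against PBS was -2.49 with rIL-4 (SE 0.20, adjusted p = 7.32e-05, edgeR), a level 5.63-fold lower. With rIL-13 it was -1.07 (SE 0.19, adjusted p = 0.0133, edgeR), and between the cytokines -1.43 (SE 0.20, adjusted p = 0.0205, edgeR). The call with rIL-4 against PBS held without each mouse in turn. That with rIL-13 was lost without mouse 1 or 3 of PBS or mouse 7 of rIL-13, with adjusted p from 0.0503 to 0.0608, and that between the cytokines without mouse 5 of rIL-13 or mouse 8 or 9 of rIL-4, with adjusted p from 0.0521 to 0.0869, all in edgeR.

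In microglia Gas6 had 10025, 10452 and 11410 normalized counts with PBS, 6293, 8625 and 6149 with rIL-13 and 3645, 5640 and 5857 with rIL-4. Again the groups did not overlap and stood in the same order. The log2 fold change with rIL-4 against PBS was -1.04 (SE 0.21, adjusted p = 0.0339, edgeR), and it lost the call without any single mouse of the 2 groups, with adjusted p from 0.0614 to 0.143. The interaction of cell type and rIL-4 was 1.43 on the log2 scale (SE 0.30, adjusted p = 0.0315, edgeR), with the larger fall in macrophages, and the call was lost in 4 of 6 fits that left out a mouse, without PBS mouse 1, 2 or 3 or rIL-4 mouse 9, with adjusted p of up to 0.195. Up to 129 counts in a library went to Tmem255b, which overlaps Gas6 on the opposite strand, and SMART-seq2 reads carry no strand, so that reads of the overlap could not be assigned with certainty.

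Marker lists moved beside Gas6. In microglia the fibroblast and pericyte markers were lower in every rIL-4 library than in any PBS library, as given above, and of the rIL-13 libraries mouse 6, with 9611 CPM of these markers, also had the highest Gas6, Axl, Pros1 and Mfge8 of its group. Without that mouse the log2 fold change between the cell types after rIL-13 was 1.06 for Gas6 and 1.72 for Mfge8. The rIL-13 microglia of mice 5 and 7 still held 2033 and 1537 CPM of these markers, so that this fit does not test their part. In macrophages the same markers were close to 0, with 3.42 to 8.27 CPM after rIL-13 and 0.240 to 1.11 after rIL-4, and 4.40 to 6.61 after PBS. The microglia markers in macrophages, by contrast, stood in the same order as Gas6, highest with PBS and lowest with rIL-4. Neutrophil markers moved with rIL-4, from 982 to 1498 CPM with PBS to 254 to 832 with rIL-4 in macrophages, where 3 of 10 were called lower. In microglia they went from 197 to 274 to 119 to 179 CPM, and 0 of 9 were called by edgeR. With rIL-13 they overlapped PBS, at 498 to 2755 CPM in macrophages and 104 to 357 in microglia. The part of these cells in the Gas6 differences was not tested.

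Pros1 (ENSMUSG00000022912.8, chromosome 16 from 62854307 to 62929346), the anticoagulant protein S and a ligand of Mertk and Tyro3, had 4160, 2174 and 3231 normalized counts in PBS macrophages, 2731, 2032 and 2130 with rIL-13 and 1820, 1191 and 1217 with rIL-4. The rIL-4 libraries lay below all others. The log2 fold change with rIL-4 against PBS was -1.12 (SE 0.25, adjusted p = 0.0143, edgeR), and without rIL-4 mouse 10 it was -1.03 with an adjusted p of 0.064. The microglia markers fell in the same macrophage libraries, 8 of 8 of them called lower, and their part in the fall of Pros1 was not tested. In microglia it had 11737 to 13769, 10245 to 14377 and 7449 to 9789 normalized counts, and was not called. The ratio of Gas6 to Pros1 per kb was 3.27 ± 0.742 (SD, n = 3) in PBS macrophages, 2.04 ± 0.200 with rIL-13 and 1.27 ± 0.490 with rIL-4, with no overlap between the 3 groups. In microglia it was 1.35 ± 0.159, 0.968 ± 0.00834 and 0.953 ± 0.335. These ratios are given without a test.

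Mfge8 (ENSMUSG00000030605.15, chromosome 7 from 79133768 to 79149060), which bridges phosphatidylserine to αv integrins, was not called in any treatment comparison over the 9 libraries of a cell type, although with only the 6 libraries compared it was for rIL-4 against PBS in macrophages, with -0.77 (adjusted p = 0.0337, edgeR). It had 3483 to 5332 normalized counts in PBS microglia, 3764 to 5392 with rIL-13 and 2323 to 3406 with rIL-4. The 3 rIL-4 libraries lay below the other 6, with log2 fold changes of -0.66 against PBS and -0.68 against rIL-13 (SE 0.21 in both). In macrophages it had 1328 to 1819, 709 to 1687 and 699 to 1078.

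Among the direct phosphatidylserine receptors, Stab1 (ENSMUSG00000042286.13, chromosome 14 from 31139013 to 31168641), the scavenger receptor stabilin-1, fell in macrophages. It had 34314, 23614 and 28688 normalized counts with PBS, 15716, 13624 and 17741 with rIL-13 and 7850, 5790 and 9873 with rIL-4. The 3 groups stood apart in that order. With rIL-4 the log2 fold change was -1.83 (SE 0.22, adjusted p = 0.000552, edgeR), which is 3.55-fold lower, and it was called without each mouse in turn. With rIL-13 it was -0.85 (SE 0.21) with an adjusted p of 0.0532 in edgeR, and it passed the threshold in 5 of the 6 fits with another method, filter or set of libraries, with adjusted p of 0.0497 with DESeq2's size factors and 0.00481 with DESeq2's Wald test. It did not pass in any fit that left out a mouse.

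In microglia Stab1 had 12284 to 18452 normalized counts with PBS, 8090 to 12393 with rIL-13 and 7391 to 9990 with rIL-4. The rIL-4 group lay below PBS, with a log2 fold change of -0.83 and an adjusted p of 0.108 in edgeR. DESeq2's Wald test called it, with an adjusted p of 0.00753, as did edgeR with all 18 libraries, with 0.0381. Up to 1004 counts in a library belonged to Nt5dc2, which overlaps Stab1 on the opposite strand, and reads of the overlap could not be told apart. The 7 border macrophage markers did not move one way in macrophages. With rIL-4 their median log2 fold change was -0.80, 2 were called lower (F13a1 with -2.37 and Folr2 with -0.80) and 3 higher (Cd163 with 6.26, Mrc1 with 4.84 and Cbr2 with 1.88), while Lyve1 (-2.47) and Pf4 (-1.29) did not pass the threshold. Their sum, 1787 to 2143 CPM with PBS, 2115 to 3888 with rIL-13 and 1777 to 3210 with rIL-4, was carried by different genes in PBS and rIL-4, F13a1 with a mean of 1241 CPM in PBS and Mrc1 with 1404 CPM in rIL-4. The part of these cells in the fall of Stab1 was not tested.

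Cd300lf (ENSMUSG00000047798.15, chromosome 11 from 115116214 to 115133992), a receptor with inhibitory motifs that binds phosphatidylserine on dying cells, was the member called as higher. In microglia it had 1101, 1473 and 1674 normalized counts with PBS, 3468, 2266 and 2936 with rIL-13 and 4318, 4606 and 4186 with rIL-4. The groups stood apart, with rIL-13 between PBS and rIL-4. With rIL-4 against PBS the log2 fold change was 1.66 (SE 0.22, adjusted p = 0.00695, edgeR), 3.16-fold higher, and it was called in all 12 alternative fits, those without each mouse included. With rIL-13 it was 1.04 (SE 0.22, adjusted p = 0.127, edgeR). DESeq2's Wald test called that difference, with an adjusted p of 0.000553, as did edgeR with all 18 libraries, with 0.0128.

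In macrophages Cd300lf had 11604, 14028 and 11870 normalized counts with PBS, 11574, 16566 and 14774 with rIL-13 and 11590, 15231 and 12520 with rIL-4. The 3 groups overlapped, with log2 fold changes of 0.12 with rIL-4 and 0.22 with rIL-13. The response to rIL-4 was larger in microglia, by 1.52 on the log2 scale (SE 0.27, adjusted p = 0.0147, edgeR interaction over 18 libraries), a call lost without PBS mouse 1, 2 or 3 or rIL-4 mouse 10, with adjusted p of up to 0.0911. For rIL-13 the interaction of 0.82 (SE 0.27) did not pass the threshold, with an adjusted p of 0.577 in edgeR. Cd300lf overlaps Rab37 on the opposite strand, which had up to 115 counts in a library.

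The summed markers of monocyte-derived macrophages moved with Cd300lf in microglia, though not every marker did. All 8 were counted in every microglia group, and their sum was 99.5 to 418 CPM with PBS, 5169 to 8424 with rIL-13 and 11454 to 23610 with rIL-4. Most of it was Chil3, which IL-4 is known to induce. Without Chil3, a choice made after the values were seen, the sum of the other 7 was 44.0 to 124 CPM with PBS, 99.1 to 136 with rIL-13 and 119 to 228 with rIL-4, against 548 to 984, 607 to 1922 and 763 to 1606 CPM in macrophages. Of these 7, F10 was called with rIL-4 in microglia and rose from a mean of 12.3 to 111 CPM, most of the increase of the sum, while the means of Plac8 went from 6.23 to 3.73 CPM and of Hp from 4.77 to 2.53, and Vcan went from 739 to 960 counts with PBS to 212 to 414 with rIL-4, none of them called by edgeR. The border macrophage markers summed to 310 to 685, 742 to 1125 and 600 to 1352 CPM in microglia, and did not move one way. With rIL-4 against PBS 3 of 7 were called, all higher. The mean of Mrc1 rose from 19.7 CPM with PBS to 358 with rIL-4. That of F13a1 went from 236 to 89.8, of Folr2 from 51.8 to 43.3 and of Lyve1 from 11.5 to 10.1. The part of monocyte-derived and border macrophages in the rise of Cd300lf was not tested.

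Timd4 (ENSMUSG00000055546.6, chromosome 11 from 46810800 to 46844332), which encodes the phosphatidylserine receptor TIM-4 of resident macrophages, was barely counted. In microglia it had 51, 0 and 14 counts with PBS, 0, 62 and 0 with rIL-13 and 0, 0 and 76 with rIL-4. In macrophages it had 4 to 37 counts with PBS, 1 to 25 with rIL-13 and 6 to 29 with rIL-4. Libraries with and without counts stood side by side in each microglia group, and no difference was detectable at this depth, with SEs of the log2 fold changes of up to 2.79.

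Elmo1 (ENSMUSG00000041112.16, chromosome 13 from 20090596 to 20608353, positions from a neighbouring version of the annotation) fell in macrophages. It had 7405, 5017 and 5590 normalized counts with PBS, 3721, 3066 and 3609 with rIL-13 and 2719, 2475 and 2500 with rIL-4. The groups did not overlap and kept the order PBS, rIL-13, rIL-4. The log2 fold change was -1.17 with rIL-4 (SE 0.16, adjusted p = 0.00108, edgeR) and -0.76 with rIL-13 (SE 0.16, adjusted p = 0.0247, edgeR). The first was called without each mouse in turn. The second held only without PBS mouse 2, with adjusted p from 0.0503 to 0.0741 without the others, and was 0.118 with all 18 libraries in 1 fit. The microglia markers fell in the same macrophage libraries, 8 of 8 called lower with rIL-4 and 2 of 8 with rIL-13. Their part in the fall of Elmo1 was not tested. In microglia Elmo1 had 5347 to 8207 with PBS, 3027 to 5455 with rIL-13 and 3739 to 5121 with rIL-4, and was not called. Genes that overlap its span, on either strand, had at most 48 counts in a library.

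**Figure D3:**
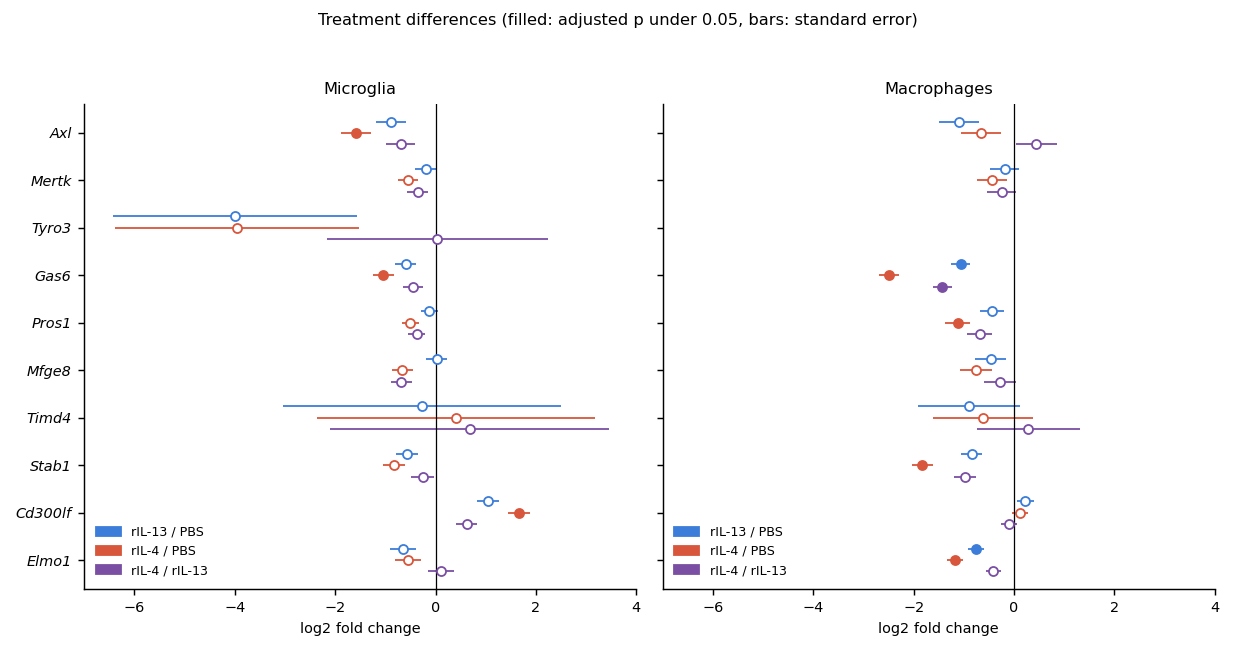
Log2 fold changes (x axis) of each member between treatments, in microglia (left) and macrophages (right), from edgeR. Points are estimates, bars their standard error and filled points have an adjusted p under 0.05. Cd300lf was the filled point to the right of 0 in microglia, at 1.66, and Gas6 was filled in all 3 comparisons of macrophages, at -2.49, -1.07 and -1.43. Tyro3 was not tested in macrophages.

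The second question was how the cell types differed after each injection. After PBS, 8 of 10 members were DE between microglia and macrophages, against 40.9% of 14715 genes tested, 5 of them higher and 3 lower in microglia. Tyro3 was among the 5 and passed the filter only through the microglia libraries. After rIL-13, 4 of the 8 members tested were DE, against 26.7% of 13906 genes, and after rIL-4 5 of 9, against 23.4% of 13576 genes. The 3 ligands were higher in microglia after each injection. For Pros1 the log2 fold change was 1.93 (SE 0.22) after PBS, 2.31 (0.21) after rIL-13 and 2.60 (0.21) after rIL-4. For Gas6 it was 0.71 (0.13), 1.24 (0.19) and 2.20 (0.27), and for Mfge8 1.53 (0.20), 2.08 (0.36) and 1.66 (0.23). All 9 passed edgeR's test, with adjusted p of 0.00504 at most, but that of Gas6 after PBS did not without mouse 3, with 0.0540, nor did those of Gas6 and Mfge8 after rIL-13 without mouse 7, with 0.0522 and 0.0647. All 8 fibroblast and pericyte markers and all 7 endothelial markers were also called higher in microglia after each injection, with medians of 8.88 to 10.49 and 3.46 to 4.97 on the log2 scale, and their part in the ligand differences was not tested.

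Cd300lf was higher in macrophages after each injection, by a margin that narrowed from a log2 fold change of -3.20 (SE 0.18) after PBS to -2.33 (0.23) after rIL-13 and -1.63 (0.16) after rIL-4, with adjusted p of 0.000632 at most in edgeR. Stab1 was higher in macrophages after PBS, with -0.98 (SE 0.19, adjusted p = 0.00344, edgeR), and stood at 0.05 after rIL-4. After rIL-13 it was -0.66 with an adjusted p of 0.0595, and 0.0291 with the mouse as a replicate block. Elmo1 differed after rIL-4, where it was higher in microglia with 0.81 (SE 0.17, adjusted p = 0.0113, edgeR), though not without mouse 9 or mouse 10, with adjusted p of 0.0671 and 0.137.

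Of the receptors, Tyro3 was higher in PBS microglia, with 163 to 172 counts against 7, 0 and 0 in PBS macrophages. Its fitted log2 fold change of 5.73 (SE 1.09, adjusted p = 0.00303, edgeR) rested on few counts in macrophages, and it was 10.19 without mouse 1, whose macrophages held the 7 counts. Tyro3 passed the filter only through these microglia, so that the call is tied to the group where it was high. The adjusted p was 0.0936 with all 18 libraries in 1 edgeR fit. Axl was slightly higher in PBS microglia, with 0.37 (SE 0.11, adjusted p = 0.0256, edgeR), a call that was lost without mouse 2 or mouse 3, with all genes of any count and with all 18 libraries. Mertk was lower in microglia after PBS, with -0.56 (SE 0.17, adjusted p = 0.0259, edgeR), a call that was lost without mouse 3 and with all 18 libraries in 1 fit, with adjusted p of 0.136 and 0.175. After rIL-4 it was -0.64 with an adjusted p of 0.0705, and 0.0358 with the mouse as a replicate block and 0.0443 without mouse 9. The order of levels per kb of exon therefore differed. Gas6 (4171 ± 278 normalized counts per kb, SD, n = 3) and Pros1 (3105 ± 250) led in PBS microglia, whereas in PBS macrophages Stab1 (2806 ± 520), Gas6 (2438 ± 307) and Cd300lf (2428 ± 258) were within their spread of each other at the top. Cd300lf was first in rIL-4 macrophages, with 2547 ± 367, and Gas6 had moved to the fifth place there with 417 ± 110. Pros1 and Gas6 remained the first pair in microglia with both cytokines, at 2144 ± 293 and 1981 ± 479 with rIL-4, where they did not differ beyond their spread.

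**Figure D4:**
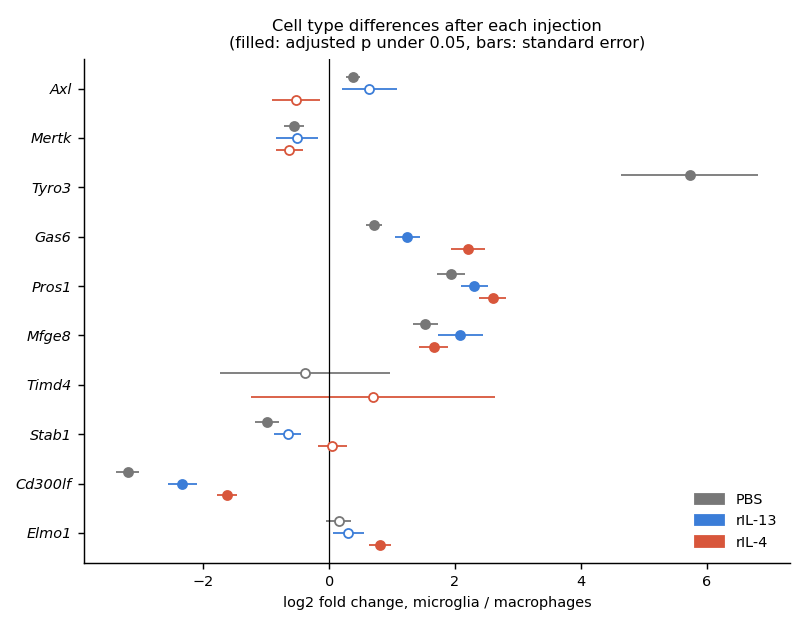
Log2 fold change of microglia over macrophages (x axis) for each member after PBS, rIL-13 and rIL-4. Points are estimates from edgeR, bars their standard error and filled points have an adjusted p under 0.05. The ligands Gas6, Pros1 and Mfge8 lay to the right of 0 after each injection, between 0.71 and 2.60, and Cd300lf to the left, between -3.20 and -1.63.

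Across both cell types, the response to rIL-4 differed for 2 of 10 members, Gas6 and Cd300lf, against 0.992% of 16535 genes. For rIL-13 it differed for 0 of 10 by edgeR, against 0.0242% of all genes, with 1 member at an unadjusted p under 0.05 and 0 by DESeq2's Wald test. Without each of PBS mice 1, 2 and 3 the count for rIL-4 was 0. Stab1 had an interaction of 0.98 (SE 0.32) with rIL-4, whose adjusted p was 0.188 in edgeR and 0.0468 in DESeq2.

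Genes around the 10 members were taken from 6 lists of the same pathway. Of the bridging and opsonizing molecules, 6 of 7 tested were DE with rIL-4 in macrophages, where 14.0% of all genes were, 4 lower and 2 higher, with a median log2 fold change of -0.91 against 0.02 for all genes. The chains of C1q, which tag dying cells, were among those that fell, with log2 fold changes of -1.43 for C1qc, -1.37 for C1qa and -0.91 for C1qb, and Thbs1 (thrombospondin 1) fell with -2.10. The microglia markers fell in the same libraries, 8 of 8 of them called lower with a median of -3.73, and their part in the fall of C1q was not tested. The 2 genes called higher were Calr, an eat-me signal as calreticulin, with 0.69 and Anxa1 (annexin A1) with 0.54, both named after their values were seen. In microglia 0 of 8 of this list were DE with rIL-4 by edgeR, with a median of -0.65 against -0.06. The response of Calr differed by cell type, with an interaction of -0.94 (SE 0.19, adjusted p = 0.0282, edgeR).

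Of 16 other engulfment receptors tested, rIL-4 called 5 in macrophages, 3 higher and 2 lower, against 14.0% of all genes, and 3 in microglia, 1 higher and 2 lower, against 2.22%. Olr1, the receptor of oxidized LDL, rose in both, with log2 fold changes of 2.36 in microglia and 1.86 in macrophages, and also rose with rIL-13 in macrophages with 1.35. The scavenger receptor Msr1 fell in macrophages, with -1.51 with rIL-4 and -0.76 with rIL-13, while the integrin chain Itgb3 rose with 2.45 and 1.50, and Cd300lb, a relative of Cd300lf, rose with rIL-4 with 0.74. Itgb5, a partner chain of the αv integrin that Mfge8 binds, fell in rIL-4 microglia with -1.65, as did the apoptotic cell receptor Cd14 with -1.27. Among 14 engulfment signalling genes in macrophages 2 were called with each cytokine by edgeR, a share near the 14.0% of all genes with rIL-4 and against 4.19% with rIL-13. Lower with both were Ptk2b, a focal adhesion kinase, with -1.29 and -1.01, and the Rac activator Vav1, with -0.83 and -0.55. Of 18 genes of corpse digestion and lipid handling, Pparg, a lipid-sensing nuclear receptor, was the 1 called with rIL-4 in macrophages, with 1.67, a smaller share than the 14.0% of all genes.

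Of the 9 find-me and do-not-eat-me genes, 5 were DE with rIL-4 in macrophages, 2 higher and 3 lower, against 14.0% of all genes. Cx3cr1, which senses the find-me signal fractalkine, fell by 4.58 on the log2 scale, beside the microglia markers given above for C1q, and the part of microglial RNA in it was not tested. Cx3cr1 was also called with rIL-13 in macrophages, with -1.93, and with rIL-4 in microglia, with -2.07, the 1 gene of the list called there, where 2 of 8 microglia markers were called lower with a median of -1.49. S1pr1 fell by 2.25 and P2ry2, a nucleotide receptor, by 0.97, while Cd47, the do-not-eat-me signal, rose by 0.73. Of the list of TAM feedback, shedding and ligand activation, rIL-4 called 2 of 10 in microglia, against 2.22% of all genes, 1 higher and 1 lower, and 3 of 8 in macrophages, against 14.0%, 2 higher and 1 lower, and rIL-13 called 1 of 10, against 0.366%, and 2 of 8, against 4.19%. Socs3, another feedback inhibitor, was lower with rIL-4 in microglia, with -0.89. Socs1, a feedback inhibitor of cytokine signalling, was called higher in all 4 comparisons against PBS, with log2 fold changes of 3.90 with rIL-4 and 2.70 with rIL-13 in microglia and 3.55 and 2.62 in macrophages. Vkorc1, an enzyme of the vitamin K cycle on which the γ-carboxylation of Gas6 and protein S depends, rose in macrophages with 1.42 with rIL-4 and 0.94 with rIL-13. Its response to rIL-4 differed between the cell types by -1.51 (SE 0.25, adjusted p = 0.00883, edgeR), and in microglia it was -0.06 with rIL-4 and not called.

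The genes whose log2 levels followed a receptor most closely over the 18 libraries were named as a description. These libraries share 2 cell types, 3 injections and 9 mice, and 13009 genes were compared for Axl and Mertk and 13010 for Tyro3. For Axl they were As3mt (Pearson's r 0.850), Abhd12 (0.848) and Csnk1g3 (0.838). For Mertk they were Grn (0.937), the gene of progranulin, Tmem86a (0.930) and Pld3 (0.916). For Tyro3, which was at or near 0 in most libraries, they were Usp22 (0.856), Abhd17a (0.793) and Glcci1 (0.793).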

How the data were processed

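Microglia and macrophages of 9 mice were sequenced with SMART-seq2, which amplifies full-length cDNA without molecular identifiers or strand. The sources name STAR 2.5.3a, RSEM 1.3.0 and GRCm38, and the deposited values were the authors' expected counts per gene, rounded to whole numbers and not normalized. Reads that fit more than 1 gene are split between them by RSEM, and copies made by PCR were counted as separate reads. Libraries were grouped by the labels, and the replicates of a group are separate animals.

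Comparisons used edgeR 4.0.16 (quasi-likelihood test, TMM, filterByExpr, R 4.3.3), with the 9 libraries of a cell type for treatments, 6 libraries for cell types after each injection and 18 for interactions. Standard errors were derived from the F statistic. P-values were adjusted by Benjamini-Hochberg over all genes tested, and the scripts were tested on simulated data with 200 changed genes. Normalized counts were counts divided by size factors of DESeq2 1.42.0 over the 18 libraries, and those per kb used the exon union of GENCODE M21. Of 53465 gene IDs, 53360 matched that annotation. Promoters came from RefSeq.

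The alternatives were DESeq2, its size factors, other filters, other sets of libraries and leaving out each mouse. The labels give both cell types of a mouse, and the deviations of same-mouse libraries from their group means correlated at 0.024 to 0.108. The main fits had no block for the mouse, since the study's methods name none. The mouse as a block was an alternative fit. A member's values are printed with their test where it passed an adjusted p of 0.05, or where groups did not overlap and the log2 fold change was at least 1 in size, and others by ranges. Genes of the wider lists are named where called against PBS, at most 4 per list and comparison by lowest p unless stated otherwise. Of their other comparisons, the interactions of Calr and Vkorc1 with rIL-4 are given and the rest are not listed. A called gene of these lists is not reported here. The 3 nearest genes were given for each receptor. Members and lists were chosen with earlier results of these data known.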

Additional observations from a re-analysis of the deposited data

Results flagged for a closer look

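The response of 2 members to rIL-4 differed between microglia and macrophages in an interaction test over the 18 libraries. For Cd300lf the difference was 1.52 in log2 units (SE 0.27, adjusted p = 0.0147, edgeR), with a log2 fold change against PBS of 1.66 in microglia and 0.12 in macrophages. All 3 rIL-4 microglia libraries lay above all 3 PBS microglia libraries. With the mouse as a replicate block it was 1.54 (adjusted p = 0.0282, edgeR), and with each mouse left out it was between 1.43 and 1.70, with an adjusted p between 0.0295 and 0.0911.

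For Gas6 the difference was 1.43 (SE 0.30, adjusted p = 0.0315, edgeR), with -1.04 in microglia and -2.49 in macrophages. In both cell types all 3 rIL-4 libraries lay below all 3 PBS libraries. With the replicate block it was 1.43 (adjusted p = 0.0253, edgeR), and with each mouse left out it was between 1.20 and 1.65, with an adjusted p between 0.030 and 0.195.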

How the results depend on the processing

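The 33 fold changes that the rule for members gave with their test kept their direction in all of their 340 alternative fits, of which 45 lost and 3 gained the call. The number of members called moved by more than 1.5 times, or from or to 0, in these fits of all mice. For rIL-13 against PBS in microglia it was 1 with DESeq2 and 1 with all 18 libraries in 1 fit, in place of 0, where 414 and 172 of all genes were called in place of 57. For rIL-13 against PBS in macrophages it was 4 with DESeq2 and 1 with all 18 libraries, in place of 2, and 1111 and 257 of all genes in place of 570. For rIL-4 against rIL-13 in macrophages it was 2 with DESeq2, 2 with all genes of any count and 0 with only the 6 libraries compared, in place of 1, and 399, 209 and 7 of all genes in place of 34. Between the cell types after PBS it was 5 with all 18 libraries, in place of 8, and 4240 of all genes in place of 6014. Smaller changes were by 1 member, to 4 for rIL-4 against PBS in microglia with DESeq2 and with all 18 libraries, to 5 for the same in macrophages with only the 6 libraries compared, to 3 for rIL-13 against PBS in macrophages with DESeq2's size factors, both other filters and only 6 libraries, to 7 between the cell types after PBS with both other filters, to 5 after rIL-13 with DESeq2 and with all 18 libraries, and to 3 for the interaction with rIL-4 with DESeq2.

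With each mouse left out in turn, the number was 1 to 2 for rIL-4 against PBS in microglia, 0 to 2 for rIL-13 against PBS and 0 to 1 for rIL-4 against rIL-13 in macrophages, 5 to 8 and 2 to 5 between the cell types after PBS and rIL-13, and 0 to 2 for the interaction with rIL-4. Such fits have fewer libraries, and all genes called fell as well, from 345 to between 75 and 269, from 570 to between 199 and 529, from 34 to between 1 and 23, from 6014 to between 4354 and 5213, from 3710 to between 1197 and 3606 and from 164 to between 18 and 109, in the same order. The Axl share of the TAM signal was -6.36 percentage points for rIL-4 against rIL-13 in microglia and -11.5 to 0.761 without single libraries, turning without rIL-13 mouse 6. Between the cell types after rIL-4 it was 1.86 and -1.99 to 5.35, turning without the rIL-4 microglia of mouse 8 and the rIL-4 macrophages of mouse 10. With 3 libraries a group the test of this share cannot pass the threshold.

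With the mouse as a replicate block, the numbers called were 8 after PBS, 5 after rIL-13 and 6 after rIL-4 between the cell types, 2 for the interaction with rIL-4 and 0 for that with rIL-13, and beyond Stab1 and Mertk no call of a member changed. Tyro3 and Timd4 had 0 counts in several libraries, and a count of 0 allows up to 3.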
